A study of Mus musculus with 24 samples.

Results

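PROTAC FAK degrader 1 was compared with defactinib, both at 1 µM for 24 hours in MS03 cells, using RNA from 3 biological replicates of each drug. These 6 of the 24 libraries of the series were chosen because the drugs shared dose and time, and every gene with sufficient counts was examined. MS03 is an immortalised murine Schwann cell (SC) line of genotype Nf2-/-, made by infecting cells of the Nf2 flox/flox mouse with Cre, so every group, controls included, carries that genotype in 1 line and none represents a wild-type SC. All groups grew in medium with 10% fetal bovine serum, and both drugs were dissolved in DMSO, which alone served as the control (3 libraries). The remaining libraries, of further kinase inhibitors and PROTACs, entered the filter on low counts, the scaling and the estimate of the spread. The comparison addresses how 1 degrader and 1 kinase inhibitor of the same target differed in their effect on transcription at an equal dose. Whether degradation or another property of either compound lies behind a difference was not tested.

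Focal adhesion kinase (FAK, encoded by Ptk2) is a cytoplasmic tyrosine kinase that relays signals from integrins and growth factor receptors, and it also acts as a scaffold independently of its catalytic activity. Defactinib occupies the ATP site of FAK and blocks catalysis while the protein stays in place. A PROTAC joins a ligand of its target to a ligand of an E3 ubiquitin ligase, so that the target is ubiquitinated and destroyed by the proteasome. The ligand and the ligase of PROTAC FAK degrader 1, which the labels also call PROTAC-3, are not given in the sources used here. FAK protein and its phosphorylation were not measured in these libraries, so the extent of degradation or inhibition behind these RNA values is not known.

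Total counts ranged from 18401466 to 21588406 per library with PROTAC FAK degrader 1, from 22539806 to 25999614 with defactinib and from 22952048 to 27449516 with DMSO. The root mean square distance between log2 profiles was 0.45 to 0.46 between the drugs, against 0.0963 to 0.118 among the degrader replicates and 0.0901 to 0.0937 among the defactinib replicates. Of 28 SC identity and myelin genes, 19 exceeded a mean of 1 CPM (counts relative to the library total, scaled by the TMM method) in each group. The lineage factors Sox10 and Sox2 and the receptors Erbb3 and Ngfr were present, whereas S100b, a marker of mature SCs, stayed below 0.5 CPM in all 9 libraries of the drugs and DMSO. Nf2 did not differ past the threshold (log2 difference -0.03, 95% interval -0.0974 to 0.0415), and counts over a whole gene cannot show a deletion of part of it.

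The drugs gave widely different transcriptomes. Of 16070 genes tested, 11078 (68.9%) passed an adjusted p of 0.05 (edgeR quasi-likelihood test, Benjamini-Hochberg adjustment). As shares of all genes tested, 5614 (34.9%) were higher and 5464 (34%) lower with PROTAC FAK degrader 1. Differences of at least 2-fold among the genes that passed were found for 2611 (16.2% of those tested), with 1359 higher (8.46%) and 1252 lower (7.79%), and differences of at least 4-fold for 247 and 196. All 3 degrader libraries lay above all 3 defactinib libraries for 35.5% of genes and below them for 34.7%. The median absolute log2 difference was 0.434. For 6547 genes (40.7%), in contrast, the whole 95% interval of the difference lay within 1.5-fold in either direction. These shares are the background of every gene list that follows, and a list in which about 69% of members passed does not stand apart from the rest of the transcriptome. In bulk RNA, fewer cells of a kind and less RNA per cell cannot be told apart.

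**Figure D1:**
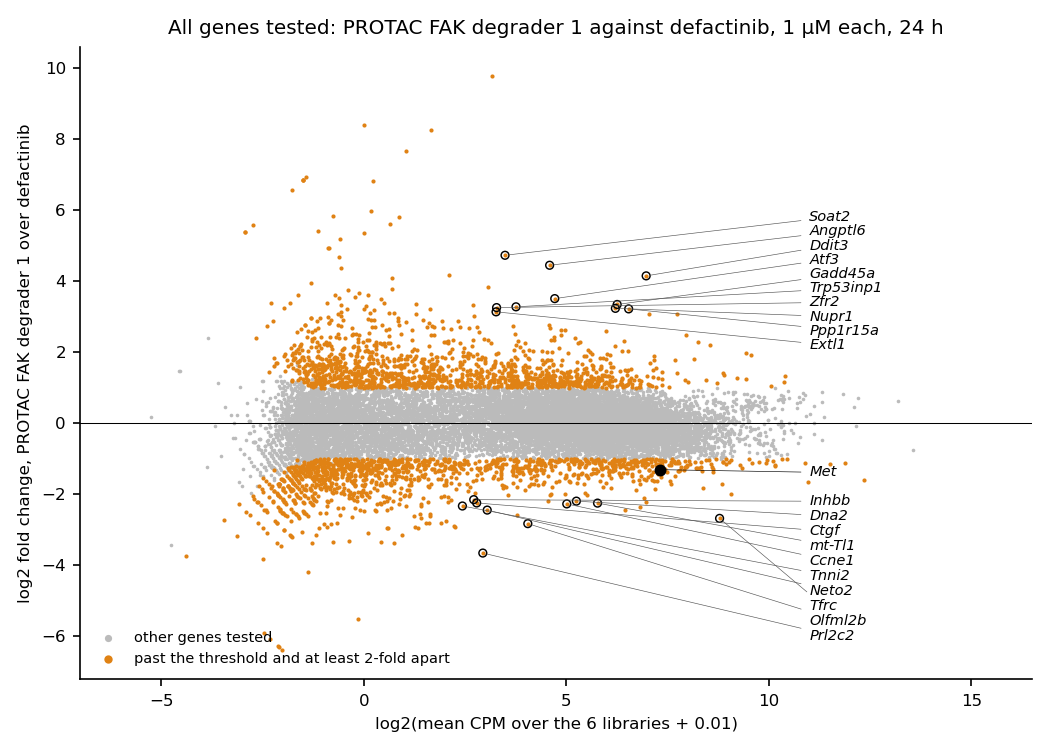
Each point is 1 of the 16070 genes tested, with its mean level over the 6 drug libraries (log2 of CPM + 0.01) on the horizontal axis and the log2 fold change of PROTAC FAK degrader 1 over defactinib on the vertical axis. Orange points passed the threshold and differed at least 2-fold (1359 higher, 1252 lower), circles mark genes named among the largest differences at a mean of at least 5 CPM with groups that did not overlap, and the black point is Met.

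Ptk2 itself was 1.13-fold higher with PROTAC FAK degrader 1. Its RNA (chr15:73205102-73423280, minus strand, GRCm38) stood at 95.7, 102 and 95.6 CPM with the degrader and 88.1, 87.7 and 83.7 CPM with defactinib, and at 92.9, 95.4 and 97.7 CPM with DMSO. The degrader libraries lay above those of defactinib and overlapped those of DMSO. The log2 difference between the drugs was 0.18 (95% interval 0.101 to 0.251, edgeR adjusted p = 3.44e-05). Against DMSO it was -0.14 with defactinib (edgeR adjusted p = 0.00253) and 0.03 with the degrader, which did not pass (edgeR adjusted p = 0.396). A degrader acts on the protein, which these RNA values do not measure. Ptk2b, which encodes the close relative of FAK, had at most 3 counts in each drug library and was not tested.

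Of the 15 largest increases, 5 (Ddit3, Atf3, Nupr1, Ppp1r15a and Trib3) belong to the list of the integrated stress response, which was chosen with these values known. The rule for these genes required a mean of at least 5 CPM and groups that did not overlap. Soat2, which encodes an enzyme that esterifies cholesterol (chr15:102150526-102163469, plus strand), had the largest increase, at 22.7, 20.8 and 21.2 CPM with the degrader and 0.916, 0.728 and 0.787 CPM with defactinib (26.5-fold, log2 4.73, SE 0.148, edgeR adjusted p = 7.10e-27). Angptl6, an angiopoietin-like secreted protein, followed at 48.9, 44.8 and 44.2 CPM against 2.09, 2.14 and 2.09 CPM (21.8-fold). Ddit3, which encodes the transcription factor CHOP (chr10:127290774-127296288, plus strand), was at 241, 237 and 234 CPM against 12.7, 14.6 and 13 CPM, a 17.7-fold difference (log2 4.15, SE 0.0575, edgeR adjusted p = 4.65e-38). All 3 were low with defactinib and with DMSO, Ddit3 standing at 21, 18.8 and 19.2 CPM with DMSO. Gadd45a, a growth-arrest gene induced by stress, was 10.1-fold higher, at 141, 137 and 139.6 CPM against 11.6, 13.6 and 15.7 CPM. Zfr2 (3.25), the glycosyltransferase gene Extl1 (3.13), Tcp11l2 (3.03) and the small GTPase gene Diras1 (2.87) had log2 differences of about the same size, and 6 more of the 15 largest increases belong to lists described in later paragraphs.

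The largest decreases included genes of iron uptake and S phase. Tfrc, the transferrin receptor that carries iron into the cell (chr16:32608920-32632794, plus strand), was at 114, 119.9 and 123 CPM with the degrader and 788, 748 and 752 CPM with defactinib, a 6.41-fold difference (log2 -2.68, SE 0.0396, edgeR adjusted p = 3.51e-37). Ccne1, the cyclin of entry into S phase, was 4.83-fold lower and Dna2, a nuclease of replication and repair, 4.58-fold lower. With DMSO, Tfrc stood at 766, 767 and 763 CPM, within the range of defactinib. Ctgf, a matrix-associated growth factor and YAP target, was at 2.48, 2.09 and 2.63 CPM against 11.4, 10.5 and 12.3 CPM. The log2 difference was -2.83 for Olfml2b, an extracellular protein, -2.45 for Neto2, an auxiliary subunit of kainate receptors, and -2.33 for Tnni2, a troponin. It was -2.15 for Inhbb, an activin subunit, -2.11 for Ckap4 and -2.03 for Csn3, a casein. For mt-Tl1, a mitochondrial leucine tRNA gene, it was -2.25. The libraries were poly(A)-selected, so the mt-Tl1 value need not be the level of the mature tRNA. Prl2c2 had the largest decrease (12.6-fold), but it belongs to a family of near-identical proliferin genes among which reads can be split, so its value is uncertain.

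**Figure D2:**
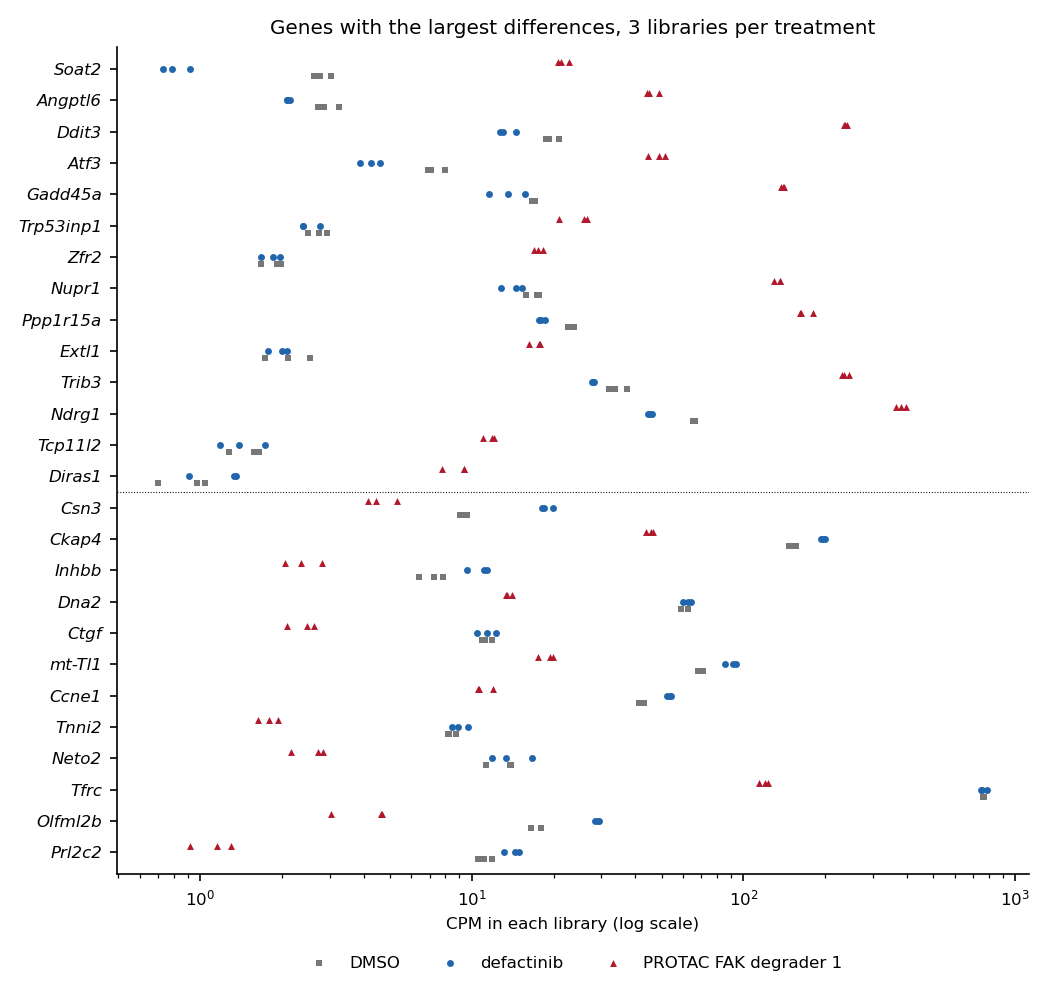
CPM in each library, on a logarithmic axis, of genes among the 15 largest increases (above the dotted line) and the 15 largest decreases (below it), with 1 symbol per library. The 3 degrader libraries lie apart from the 3 defactinib libraries for every gene shown, as the rule required.

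Genes of the integrated stress response were higher throughout. In this pathway stress-sensing kinases phosphorylate the initiation factor eIF2, general translation falls, and the transcription factor ATF4 is made and induces genes of amino acid supply and, with CHOP, of cell death. Of 21 members tested, 21 were higher with PROTAC FAK degrader 1, 14 of them at least 2-fold, with a median log2 difference of 1.21 against -0.00367 over all genes. Atf3, a stress-induced transcription factor, was at 48.7, 51.4 and 44.5 CPM against 3.88, 4.59 and 4.25 CPM (11.4-fold). Ppp1r15a, the phosphatase subunit that reverses the phosphorylation of eIF2, was at 179.8, 161 and 163 CPM against 17.7, 17.9 and 18.5 CPM (9.3-fold). The 2 groups were wide apart for both genes. Trib3, a pseudokinase, was 8.5-fold higher, at 246, 235 and 231 CPM against 27.6, 27.9 and 28.1 CPM, and Nupr1, a small stress-induced chromatin protein, 9.4-fold higher, at 136, 129.7 and 136 CPM against 14.5, 12.8 and 15.3 CPM. Fgf21, a secreted stress hormone, was at a low level, 2.02, 1.93 and 1.73 CPM against 0.305, 0.227 and 0.197 CPM (log2 2.94, SE 0.368, edgeR adjusted p = 4.52e-09). Atf4 was 1.98-fold higher, at 569.8, 570.1 and 536 CPM against 283, 279 and 284 CPM. Against the same 3 DMSO libraries, the median of the list was 1.60 with the degrader and -0.07 with defactinib.

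Promoters of these genes were searched for the composite element of ATF4 and a C/EBP partner, written TGATGNAA with N for any base, on both strands. RefSeq windows (GRCm38.p6, 250 bases before to 50 after each annotated start) were matched for 19 of 21 members, and 7 of their 23 windows (30.4%) held these letters, against 3.97% of all 32851 windows. The cytosolic aminoacyl-tRNA synthetase genes, known ATF4 targets, were matched for 13 of 20 members, and 5 of 13 windows (38.5%) held them. Of the genes of serine, one-carbon and proline synthesis, 11 of 13 members were matched and 1 of 12 windows (8.33%), that of Pycr1, held them. The stretches of 60 bases around the match are printed for 5 stress genes, the alanine synthetase gene Aars and the proline synthesis gene Pycr1, because the same 8 letters recur in them. They read 5′ to 3′ on the strand of the gene, and capitals mark the match. These genes were chosen for the match, with their values known.
Atf3, chr1:191183410-191183469, minus strand, match starting 110 bases before the start site: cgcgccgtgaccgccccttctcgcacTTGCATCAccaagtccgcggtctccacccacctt
Nupr1, chr7:126625547-126625606, minus strand, match starting 110 bases before the start site: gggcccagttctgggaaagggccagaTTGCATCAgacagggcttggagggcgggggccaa
Chac1, chr2:119351023-119351082, plus strand, match starting 193 bases before the start site: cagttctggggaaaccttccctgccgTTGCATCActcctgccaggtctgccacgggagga
Fgf21, chr7:45615596-45615655, minus strand, match starting 139 bases before the start site: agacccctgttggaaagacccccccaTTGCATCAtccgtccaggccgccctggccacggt
Vldlr, chr19:27216794-27216853, plus strand, match starting 200 bases before the start site: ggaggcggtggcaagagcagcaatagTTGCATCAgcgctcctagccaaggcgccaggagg
Aars, chr8:111033704-111033763, plus strand, match starting 112 bases before the start site: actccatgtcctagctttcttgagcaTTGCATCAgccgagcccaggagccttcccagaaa
Pycr1, chr11:120643818-120643877, minus strand, match starting 103 bases before the start site: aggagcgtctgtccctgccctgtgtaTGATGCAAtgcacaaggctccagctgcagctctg

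The match read TTGCATCA in 6 of these windows and TGATGCAA, its reverse complement, in that of Pycr1. All 7 genes were higher with the degrader. So were all 21 tested members of the stress list, with or without a match, so the match did not set genes apart by direction. Chac1, a glutathione-degrading enzyme, was 4.16-fold higher, at 77.6, 75.3 and 72.8 CPM against 16.4, 20.1 and 17.8 CPM. Vldlr, a lipoprotein receptor, was 1.47-fold higher, at 146, 146 and 146 CPM against 99.6, 100.5 and 98.1 CPM. Asns, asparagine synthetase, whose window also held a match, was 1.92-fold higher. Ddit4, an inhibitor of mTORC1, and Cth, an enzyme of cysteine synthesis, had log2 differences of 2.28 and 1.70, and Chac1, Vldlr, Asns, Ddit4 and Cth were named after their values were seen. Here and in the promoter searches below, a match describes the sequence, and binding of a factor was not measured.

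Genes of amino acid supply followed in part. Of 20 cytosolic aminoacyl-tRNA synthetases, which charge tRNAs, 15 were higher and 5 lower with the degrader (median 0.35). Wars, for tryptophan, was 2.65-fold higher, at 311, 312 and 297 CPM against 114, 115 and 118 CPM, and Sars, for serine, 2.41-fold higher. Aars was 1.78-fold higher, and Farsa, a subunit of the phenylalanine enzyme, 1.47-fold lower. Of 13 genes of serine, one-carbon and proline synthesis, 9 were higher and 4 lower (median 0.17). Aldh1l2, a mitochondrial folate dehydrogenase, was at 623, 618 and 593 CPM against 134, 129 and 137 CPM (4.58-fold), and Pycr1 was 3.84-fold higher. Tyms, which makes thymidylate for DNA synthesis, was 2.65-fold lower. Of 12 amino acid transporters, 6 were higher, with the glycine transporter Slc6a9 2.03-fold higher, and 6 lower, among them the glutamine carriers Slc1a5 (-0.95) and Slc38a2 (-0.95). The transporter median of -0.08 turned to 0.16 when only the 6 drug libraries were fitted.

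Genes induced by low oxygen and genes of glycolysis were mostly higher with PROTAC FAK degrader 1. Hypoxia-inducible factors are hydroxylated and then destroyed through the VHL ubiquitin ligase when oxygen is present, and otherwise they induce genes of glucose use, angiogenesis and mitophagy. Of 22 hypoxia-induced genes tested, 15 were higher, 7 of them at least 2-fold, 5 were lower and 2 did not pass (median 0.74). Ndrg1, a protein induced by hypoxia and stress, was at 396, 381 and 363 CPM against 45.9, 44.6 and 45.2 CPM (8.4-fold, log2 3.07, SE 0.039, edgeR adjusted p = 3.42e-39). Ero1l, an oxidase of the endoplasmic reticulum, was at 1094, 1153 and 1093 CPM against 286, 279 and 277 CPM (3.97-fold). Both were also higher than in DMSO, by 2.53 and 1.79 on the log2 scale. The mitophagy receptor Bnip3 was 2.91-fold higher, the carbonic anhydrase Car9 2.86-fold and Ankrd37 3.43-fold. Angptl4, an inhibitor of lipoprotein lipase that PPAR factors also induce, had the largest decrease of the list, at 0.413, 0.313 and 0.84 CPM against 1.83, 2.09 and 1.61 CPM. Of 21 genes of glucose uptake and glycolysis, 17 were higher and 4 lower (median 0.53). The enolase gene Eno2 was 3.25-fold higher, Gpi1 2.05-fold higher and Gapdh 1.78-fold higher, at 4797, 4556 and 4563 CPM against 2513, 2683 and 2621 CPM. Slc16a1, the lactate and pyruvate carrier MCT1, was 2.21-fold lower.

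The oxygen sensors and ligase genes themselves differed less. Of 16 tested, 7 were higher, 4 lower and 5 did not pass, and none reached 2-fold. Vhl was at 47.4, 49.1 and 45.1 CPM against 31, 31.7 and 31.2 CPM (1.51-fold). Crbn, which encodes cereblon, the substrate receptor of another ligase that PROTACs can recruit, was at 47.8, 46.4 and 45.3 CPM against 26.6, 26.2 and 25.7 CPM (1.78-fold). Egln1, the main prolyl hydroxylase, was 1.46-fold higher, and Arnt, the partner of the hypoxia factors, 1.91-fold higher. Hif1a RNA did not pass (log2 0.07, 95% interval -0.00401 to 0.147), although it passed with library totals as scaling and without defactinib replicate 1 or degrader replicate 1 (0.1 to 0.136). Epas1 did not pass either (-0.18, 95% interval -0.426 to 0.0699), and it passed without degrader replicate 1 (-0.32). The proteins were not measured. The letters ACGTG are the core of the hypoxia response element. On either strand, they stood in 15 of 28 windows of the hypoxia list (53.6%, 18 of 23 members matched). In the glycolysis list they stood in 15 of 31 windows (48.4%, 20 of 21 matched). The share of all windows was 19.6%. Slc16a1, which was lower with the degrader, also held a match in its window.

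Autophagy genes were mostly higher. Of 22 tested, 17 were higher, 5 of them at least 2-fold, 2 were lower and 3 did not pass (median 0.61). Sqstm1, the cargo receptor p62, was at 1252, 1185 and 1136 CPM against 309.9, 326 and 309.7 CPM (3.78-fold). The cargo receptor Optn was 3.16-fold higher and Gabarapl1, which attaches to the autophagosome membrane, 2.56-fold higher, whereas Atg16l1, a protein of that attachment step, was 1.33-fold lower. Lysosome and V-ATPase genes were mixed, with 17 higher and 13 lower of 31 (median 0.28). Mitf, a transcription factor of lysosome genes, was 3.04-fold higher, at 17.2, 18.2 and 17.9 CPM against 6.11, 5.69 and 5.71 CPM, and Rragd, a GTPase that controls mTORC1 at the lysosome, 2.95-fold higher, while the membrane protein Lamp1 was 2.05-fold lower. The CLEAR element TCACGTGA, searched on both strands, stood in 5 of 32 windows of the lysosome list (15.6%, 24 of 31 members matched) and in 0 of 19 windows of the autophagy list (17 of 22 matched), against 0.974% of all windows.

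Iron and antioxidant genes had no common direction. Of 11 iron genes, 4 were higher and 6 lower. Besides Tfrc, the import genes Slc11a2, an iron carrier, and Steap3, a ferrireductase, were 1.99-fold and 1.9-fold lower. Ftl1, a ferritin subunit that stores iron, was at 1870.5, 1836 and 1786 CPM against 814, 824 and 826 CPM (2.23-fold higher). Of 24 genes of the NRF2 antioxidant response, 12 were higher and 8 lower (median 0.11). Hmox1, which degrades haem and releases its iron, was 3.82-fold higher, at 104, 105 and 95.5 CPM against 27.4, 26.6 and 25.7 CPM. The biliverdin reductase gene Blvrb and the glutathione transferase gene Gstm1 were 2.31-fold and 2.15-fold higher. Nfe2l2, which encodes NRF2, and Keap1, its inhibitor, differed by 0.22 and 0.27 on the log2 scale, and the aldehyde dehydrogenase gene Aldh3a1 was lower (-0.84).

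**Figure D3:**
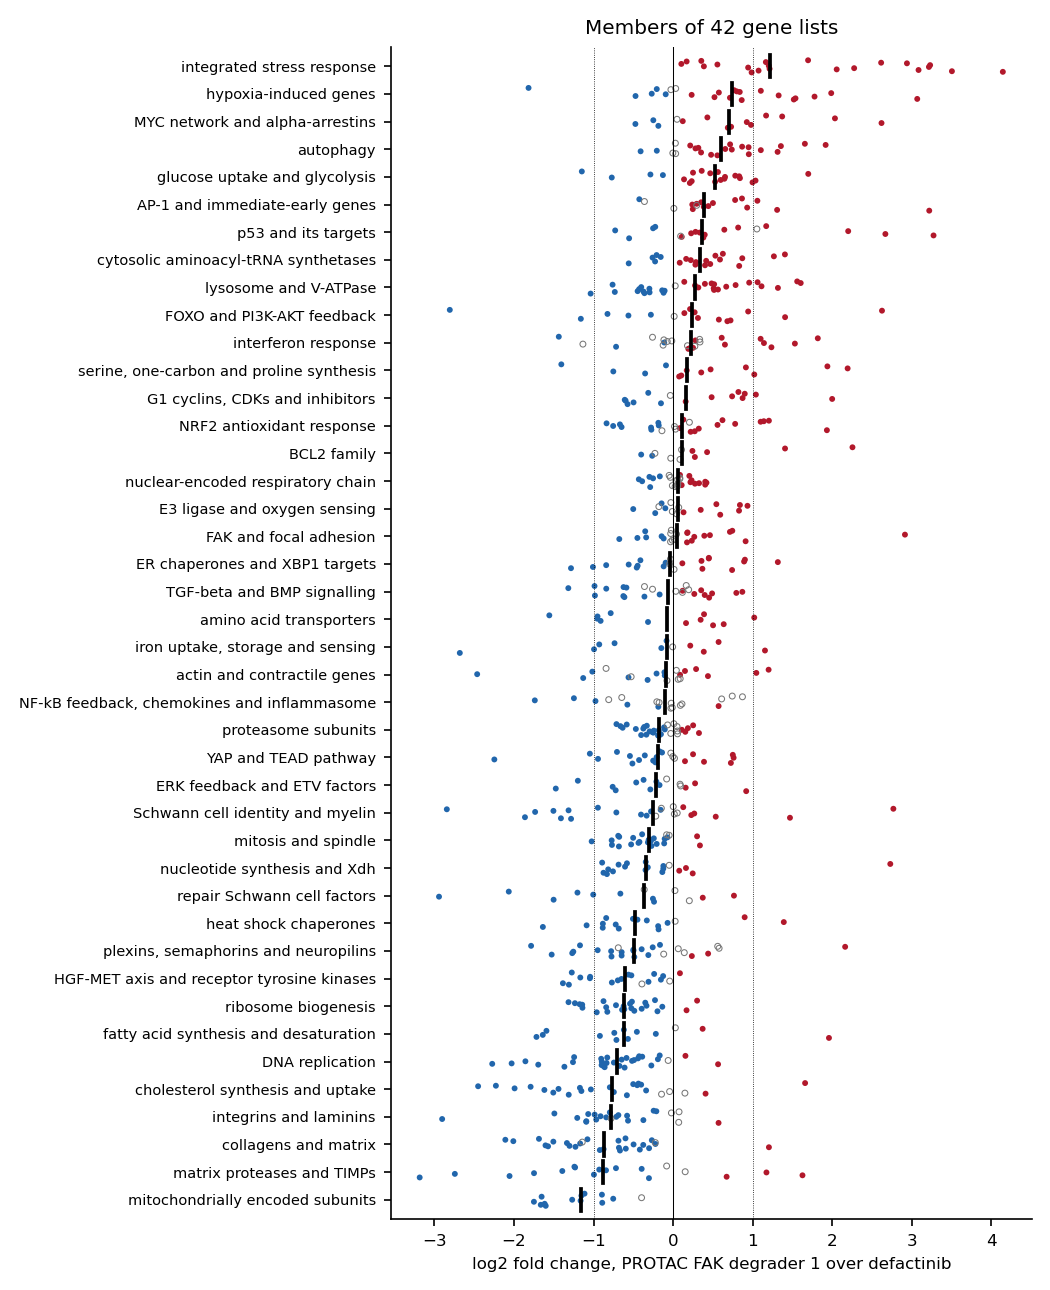
Each point is 1 tested gene of 1 of 42 gene lists, placed by its log2 fold change of PROTAC FAK degrader 1 over defactinib. Red and blue points passed the threshold (higher and lower), open points did not, black bars are medians and dotted lines mark 2-fold, with the highest median (1.21) in the integrated stress response and the lowest (-1.16) in the mitochondrially encoded subunits.

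Genes of sterol and fatty acid synthesis were mostly lower with the degrader. SREBP factors induce these genes when sterols in the endoplasmic reticulum are scarce. Of 24 genes of cholesterol synthesis and uptake, 19 were lower, 11 of them at least 2-fold, 2 were higher and 3 did not pass (median -0.77). The enzymes Hsd17b7, Dhcr7 and Cyp51, which act between lanosterol and cholesterol, were 3.98-fold, 3.46-fold and 3.07-fold lower. Abca1, which exports cholesterol, was 3.16-fold higher, at 9.33, 9.91 and 11.7 CPM against 3.23, 3 and 3.5 CPM. Srebf2, which encodes SREBP2, was 1.32-fold lower. Of 13 genes of fatty acid synthesis and desaturation, 10 were lower and 2 higher (median -0.62). Fasn, fatty acid synthase, was at 212, 212 and 224 CPM against 688, 688 and 756 CPM (3.29-fold lower) and the elongase gene Elovl6 was 3.11-fold lower, whereas Acacb, the mitochondrial acetyl-CoA carboxylase, was 3.89-fold higher. The sterol regulatory element TCACNCCAC, on either strand, stood in 1 of 21 windows of the cholesterol list (4.76%, 17 of 25 members matched) and in 1 of 15 of the fatty acid list (6.67%, 11 of 14 matched), against 1.24% of all windows.

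Proliferation genes were mostly lower. Of 30 DNA replication genes, 27 were lower, 7 of them at least 2-fold, and 2 were higher (median -0.71). Ccne1 was at 10.7, 11.9 and 10.6 CPM against 54.2, 52.4 and 53.5 CPM. Ccne2, its relative, was 4.08-fold lower, Rrm2, a subunit of ribonucleotide reductase, 3.62-fold lower, and Cdc6, which loads the replicative helicase, 3.24-fold lower. Cdt1, the partner of Cdc6, was 1.48-fold higher. Of 25 genes of mitosis and the spindle, 21 were lower and 2 higher, with a median of -0.31 and 1 gene past 2-fold, Mki67, the proliferation antigen Ki-67, at 349, 351 and 362 CPM against 729, 692 and 738 CPM. Of 15 G1 cyclins, kinases and inhibitors, 8 were higher and 6 lower (median 0.16). Cdkn1a, the inhibitor p21, had the largest increase of these, at 41.9, 38.4 and 39.6 CPM against 9.16, 10.4 and 10.4 CPM (4-fold), and Cdk2, the kinase partner of the E cyclins, was 1.52-fold lower. Of 19 nucleotide synthesis genes, 14 were lower and 4 higher (median -0.34), with thymidine kinase Tk1 1.85-fold lower and Xdh, which degrades purines, 6.64-fold higher.

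The E2F site TTTGGCGC stood on either strand in 6 of 31 windows of the DNA replication list (19.4%, 25 of 30 members matched), against 0.514% of all windows. Stretches of the promoters of the helicase subunits Mcm6 and Mcm5 are shown for this site, with capitals on the match, and were chosen with their values known.
Mcm6, chr1:128359782-128359841, minus strand, match starting 110 bases before the start site: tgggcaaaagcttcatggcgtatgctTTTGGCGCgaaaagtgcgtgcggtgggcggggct
Mcm5, chr8:75109334-75109393, plus strand, match starting 149 bases before the start site: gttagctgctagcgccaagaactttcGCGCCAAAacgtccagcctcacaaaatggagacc

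Mcm6 was at 201, 199.7 and 198 CPM with the degrader and 328, 308 and 319 CPM with defactinib (1.59-fold lower), and Mcm5 was 1.83-fold lower. The groups did not overlap for Mcm6.

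Networks of growth control were divided. Of 25 ribosome biogenesis genes, 23 were lower and 2 higher (median -0.61). Nop2, a methyltransferase of ribosomal RNA, was at 128, 131 and 125 CPM against 312, 319 and 323 CPM (2.49-fold lower), and Nolc1, a nucleolar phosphoprotein, was 2.35-fold lower. Myc, the transcription factor known to drive such genes, was higher (1.61-fold, at 518, 490.4 and 507 CPM against 305, 311 and 324 CPM). In the list of MYC partners, antagonists and alpha-arrestins, 10 of 14 were higher and 3 lower (median 0.71). Mxd4, a repressor that competes with MYC for its partner MAX, was at 52.7, 53.3 and 56.5 CPM against 8.11, 9.42 and 8.86 CPM (6.15-fold), and Txnip, an alpha-arrestin that limits glucose uptake, was 4.1-fold higher. Of 16 genes of FOXO and PI3K-AKT feedback, 10 were higher and 5 lower (median 0.24), with Klhl24 6.18-fold higher, the PI3K inhibitor gene Pik3ip1 2.66-fold higher and the insulin receptor substrate gene Irs1 2.23-fold lower.

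More p53 targets were higher than lower, and BCL2 family genes went both ways. Of 18 genes of p53 and its targets, 12 were higher and 4 lower (median 0.36), although Trp53 itself was 1.47-fold lower. Trp53inp1, a stress protein of autophagy and cell death, was at 20.9, 26.6 and 25.9 CPM against 2.4, 2.77 and 2.4 CPM (9.68-fold), and Bbc3, the death protein PUMA, at 43.1, 42.3 and 40.9 CPM against 5.89, 7.46 and 6.53 CPM (6.36-fold). Eda2r, a receptor of the TNF receptor family, was 4.6-fold higher, and the nuclease gene Aen 1.66-fold lower. Of 11 BCL2 family genes, 5 were higher, 2 lower and 4 did not pass (median 0.11). The death activators Hrk and Bmf had log2 differences of 2.26 and 1.41, Hrk at a mean of only 2.15 CPM with the degrader, while Bak1, a death effector, had the largest decrease of the family (-0.40). Of the survival genes, Mcl1 was lower (-0.26) and Bcl2l2 higher (0.27).

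More heat shock chaperones and proteasome subunits were lower than higher. Of 16 heat shock chaperones, 13 were lower and 2 higher (median -0.48). Hsph1 was 3.11-fold lower, at 88.8, 96.5 and 91.1 CPM against 288, 284 and 287 CPM, and Dnaja1 2.12-fold lower, whereas Hspa9, the mitochondrial HSP70, was 1.87-fold higher. Of 21 chaperones of the endoplasmic reticulum and XBP1 targets, 9 were higher and 9 lower (median -0.03), with Herpud1, of the degradation machinery, 2.49-fold higher and the chaperone gene Dnajb11 2.43-fold lower. Of 31 proteasome subunits, 20 were lower and 5 higher, none of them 2-fold (median -0.18), with Psmd13 1.64-fold lower.

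Transcripts of the mitochondrial genome were lower, and the nuclear genes of the same complexes had no common direction. Mitochondrially encoded genes took 1.85 to 1.89% of the counts with the degrader, 3.42 to 3.89% with defactinib and 3.03 to 3.06% with DMSO. Of 13 mitochondrial protein genes, 12 were lower, 9 of them at least 2-fold, and 1 did not pass (median -1.16). The complex I subunit mt-Nd1 was at 2643, 2534 and 2599.6 CPM against 8350.1, 8299 and 6939 CPM (3.03-fold lower), mt-Nd2 was 3.17-fold lower and mt-Nd6 2.41-fold lower. The complex IV subunit mt-Co1, named after its values were seen, was at 9049, 8988 and 8953 CPM against 15529, 15856 and 14072 CPM (1.68-fold lower). Defactinib replicate 3 was the lowest of its group for mt-Nd1 and mt-Co1 and still lay above each degrader library. The genes mt-Nd4l, mt-Co3, mt-Nd3 and mt-Atp6 stood below 6 CPM, and since nuclear copies can share their reads, their values are uncertain. They are among the 13 genes, so the counts and the median of the list include them. Of 26 nuclear-encoded respiratory chain genes, 10 were higher, 6 lower and 10 did not pass, none reached 2-fold, and the median was 0.06. Against the shared DMSO libraries, the mitochondrial list had a median of -0.83 with the degrader and 0.33 with defactinib.

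**Figure D4:**
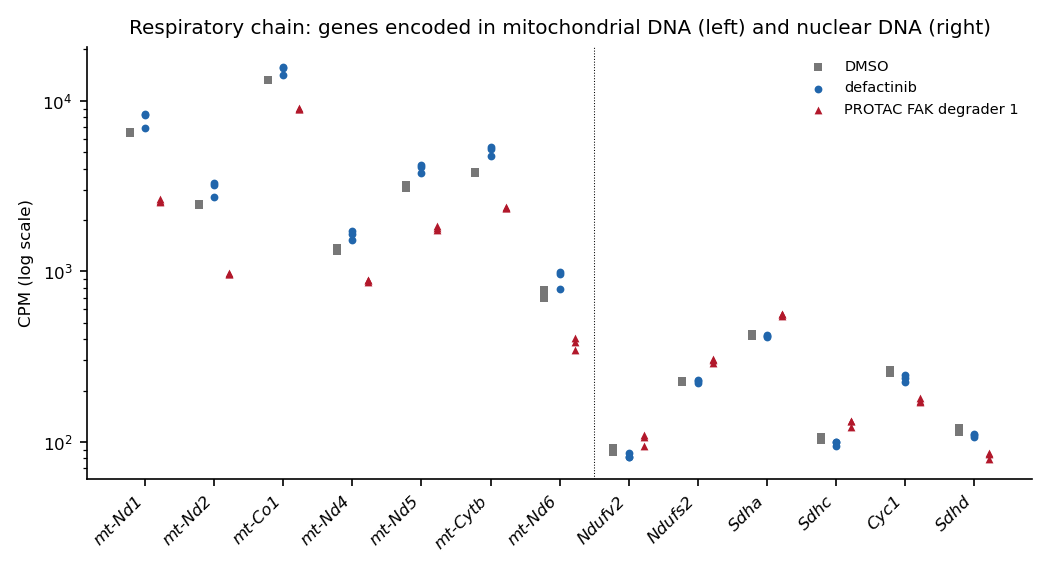
CPM in each of 9 libraries, on a logarithmic axis, for 7 mitochondrially encoded genes (left of the dotted line) and 6 nuclear respiratory chain genes (right), with 1 symbol per library. The degrader libraries lie below those of DMSO and defactinib for each mitochondrial gene shown, and above or below them for the nuclear genes.

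Genes of the FAK adhesion complex had no common direction, while integrins were mostly lower. In the list of FAK and its adhesion partners, 11 of 23 were higher and 6 lower (median 0.04). The SRC-family kinase gene Fyn was 1.88-fold higher and the tensin gene Tns2 1.64-fold higher, whereas Vcl, vinculin, was 1.6-fold lower, at 102, 104 and 105 CPM against 165, 161 and 171 CPM. Lims2, an adaptor of integrin-linked kinase, was the one member past 2-fold (7.55-fold higher, at 2.43, 1.93 and 1.52 CPM against 0.131, 0.409 and 0.236 CPM), on a low level. Of 23 integrins and laminins, 18 were lower, 6 of them at least 2-fold, and 1 was higher (median -0.78). Itgav, a receptor chain for vitronectin and fibronectin, was at 146, 150.4 and 158 CPM against 359, 333 and 355 CPM (2.3-fold lower), Itga3, a laminin receptor chain, 2.13-fold lower and Itga8 7.48-fold lower. Itga1, a collagen receptor chain, was the one higher member (1.49-fold).

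Matrix genes were mostly lower. Of 27 collagens and matrix genes tested, 24 were lower, 11 of them at least 2-fold, and 1 was higher (median -0.87). Thbs1, thrombospondin 1, was at 195, 208 and 234 CPM against 856, 829.6 and 877 CPM (4.02-fold lower), the tenascin gene Tnc was 2.84-fold lower and the collagen gene Col12a1 3.04-fold lower. Col5a3 was the higher member, at 1.24, 1.36 and 1.68 CPM against 0.654, 0.682 and 0.512 CPM. Of 7 fibroblast or perineurial markers, 3 exceeded 1 CPM, and Dcn and Lum were at 3 counts or fewer in each drug library. Pdgfra, a receptor of platelet-derived growth factor, stood at 8.55, 8.71 and 9.03 CPM against 13.8, 14 and 14.7 CPM and Ly6c1 at 1.01, 1.41 and 1.63 CPM against 3.14, 3.82 and 2.36 CPM, with each degrader library below those of defactinib. Slc2a1, a glucose transporter that is also in the glycolysis list, stood at 289, 283 and 275 CPM against 231, 246 and 255 CPM and made up most of the summed level of the 7 markers, which was 285 to 299 CPM with the degrader and 249 to 272 CPM with defactinib. The part of these markers in the matrix values was not tested. Of 18 matrix proteases and inhibitors, 13 were lower and 3 higher (median -0.89). Mmp15, a membrane-bound protease, was 6.7-fold lower, at 0.827, 0.991 and 1.37 CPM against 5.36, 6.55 and 9.17 CPM, and Adamts1 2.62-fold lower, while Mmp11 was 3.09-fold higher, at 76, 74.2 and 73.6 CPM against 22.9, 24.2 and 25.4 CPM. Of 20 actin and contractile genes, 6 were higher, 8 lower and 6 did not pass (median -0.09), with Actb, beta-actin, 2.19-fold lower, Flna, filamin A, 2.02-fold lower and the tropomyosin gene Tpm2 2.07-fold higher. Of 22 genes of the YAP and TEAD pathway, 13 were lower and 6 higher (median -0.19), with the target Ankrd1 1.92-fold lower, Yap1 1.42-fold lower and Wwtr1, the YAP relative TAZ, 1.66-fold higher.

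Met, the receptor for hepatocyte growth factor (chr6:17463800-17573980, plus strand), had less RNA with the degrader. It stood at 92.7, 90.4 and 93.3 CPM with the degrader and 232, 224 and 229 CPM with defactinib, and at 239, 232 and 241 CPM with DMSO. The degrader libraries lay below all others, and those of defactinib lay just below those of DMSO. The difference between the drugs was 2.48-fold (log2 -1.31, 95% interval -1.38 to -1.24, edgeR adjusted p = 5.06e-29). A two-sided exact permutation test of log2(CPM + 4) for Met alone, with 3 libraries a group, gave p = 0.1, the smallest that it can give. Against DMSO, Met differed by -1.36 with the degrader and by -0.05 with defactinib, which did not pass (edgeR adjusted p = 0.25). The ligand gene Hgf and Spint1, an inhibitor of its activation, had at most 1 count in each drug library. Of 18 genes of this axis and other receptor tyrosine kinases tested, 15 were lower, 6 of them at least 2-fold, and 1 was higher (median -0.60). Plau, a protease that can activate the ligand, was 2.61-fold lower. The TAM family receptors were all lower, Axl 2.06-fold, at 659, 636 and 644 CPM against 1336, 1330.2 and 1335 CPM, Mertk 2.24-fold and Tyro3 2.06-fold. The one higher member, the collagen receptor Ddr2 (log2 0.09), lost its call without defactinib replicate 2 (0.06, edgeR adjusted p = 0.0949).

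Genes downstream of receptor signalling did not share a direction. Of 15 feedback genes of the ERK pathway and ETV factors, 9 were lower and 3 higher (median -0.21). Spry1, a feedback inhibitor of receptor signalling, was 2.78-fold lower, at 25.3, 23 and 23.8 CPM against 64.1, 67.1 and 69.3 CPM, and Fosl1, an AP-1 subunit induced through ERK, 2.29-fold lower, while the ERK phosphatase gene Dusp4 was 1.89-fold higher. Of 17 AP-1 and immediate-early genes, 13 were higher, 1 lower and 3 did not pass (median 0.39). Fos was at 5.79, 5.58 and 5.51 CPM against 0.654, 0.682 and 0.472 CPM (9.33-fold), Junb was 1.91-fold higher and Maff 1.34-fold lower.

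SC identity genes were more often lower than higher with the degrader relative to defactinib. Of 24 tested, 13 were lower, 7 of them at least 2-fold, 6 were higher and 5 did not pass (median -0.25). Against the shared DMSO libraries, the median of this list was 0.05 with the degrader and 0.34 with defactinib. Sox10, the defining transcription factor of the lineage, was at 11.3, 12.4 and 12.8 CPM with the degrader and 27.2, 30.4 and 30.9 CPM with defactinib, and at 19.7, 20.3 and 20.3 CPM with DMSO. The 3 groups did not overlap, and DMSO lay between the drugs. The log2 difference between the drugs was -1.28 (SE 0.081, edgeR adjusted p = 3.17e-17). Ngfr, the p75 neurotrophin receptor of immature and repair SCs, was 3.33-fold lower, at 4.73, 4.23 and 5.83 CPM against 16.1, 16.4 and 16.6 CPM. The myelin protein gene Mbp was 1.45-fold higher, and S100b had an interval too wide to read (log2 0.02, 95% interval -1.31 to 1.34). The call of Egr2, which was below 1 CPM, was lost in some alternatives. Of 13 repair SC factors, 8 were lower and 2 higher (median -0.36), with the transcription factor gene Runx2 1.7-fold higher. Of 26 plexins, semaphorins and neuropilins, which guide axons, 17 were lower and 3 higher (median -0.49), with Sema7a 3.45-fold lower, Nrp1 2.25-fold lower and Sema6c 4.48-fold higher.

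Inflammatory and TGF-beta genes were less uniform. In the list of NF-kB feedback, chemokines and the inflammasome, 5 of 18 were lower, 1 higher and 12 did not pass, so 33.3% passed against 68.9% of all genes. Ccl2, which attracts monocytes, was at 8.82, 8.76 and 9.56 CPM against 31, 31.8 and 27.9 CPM (3.34-fold lower), and Csf1, the macrophage growth factor, was 2.37-fold lower, at 229, 227 and 231 CPM against 545, 537 and 546 CPM. The inflammasome gene Nlrp3 had at most 2 counts in each drug library. Of 24 interferon response genes, 11 were higher, 3 lower and 10 did not pass (median 0.23), with the antigen peptide transporter Tap1 3.53-fold higher. The share that passed, 58.3%, was also below the 68.9% of all genes. In an alternative fit, limma-trend on log2(CPM + 4), the median was 0.11. The summed level of 8 macrophage markers was 11.8 to 12.6 CPM with the degrader and 5.07 to 5.55 CPM with defactinib, but only Cd68, which also encodes a lysosomal protein, exceeded 1 CPM, and Ptprc, Adgre1, Itgam and Cd14 were at 3 counts or fewer in each drug library. All 6 T or NK cell markers were at 3 counts or fewer. Of 24 genes of TGF-beta and BMP signalling, 8 were higher and 10 lower (median -0.07), with the receptor Tgfbr2 1.98-fold lower and the BMP effector Smad9 1.83-fold higher.

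Against the same 3 DMSO libraries, the drugs differed in the extent of their response. PROTAC FAK degrader 1 had 10741 genes past the threshold (66.8% of the genes tested, as are all shares here), with 5484 higher (34.1%) and 5257 lower (32.7%). In all, 2301 (14.3%) passed and differed at least 2-fold, 1292 higher (8.04%) and 1009 lower (6.28%). Defactinib had 3594 (22.4%), with 1828 higher (11.4%) and 1766 lower (11%), and 94 (0.585%) passed and differed at least 2-fold, 62 higher (0.386%) and 32 lower (0.199%). Among genes that passed in opposite directions, those with the largest differences between the drugs were named. Soat2 stood at 2.95 over DMSO on the log2 scale with the degrader and at -1.78 with defactinib, Angptl6 at 3.96 and -0.48, and Ddit3 at 3.59 and -0.55. In the other direction, Olfml2b stood at -2.10 with the degrader and 0.73 with defactinib, and the uncertain Prl2c2 at -3.32 and 0.34. Tfrc differed from DMSO by -2.69 with the degrader and by -0.00449 with defactinib, the latter not past the threshold (edgeR adjusted p = 0.95).

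**Figure D5:**
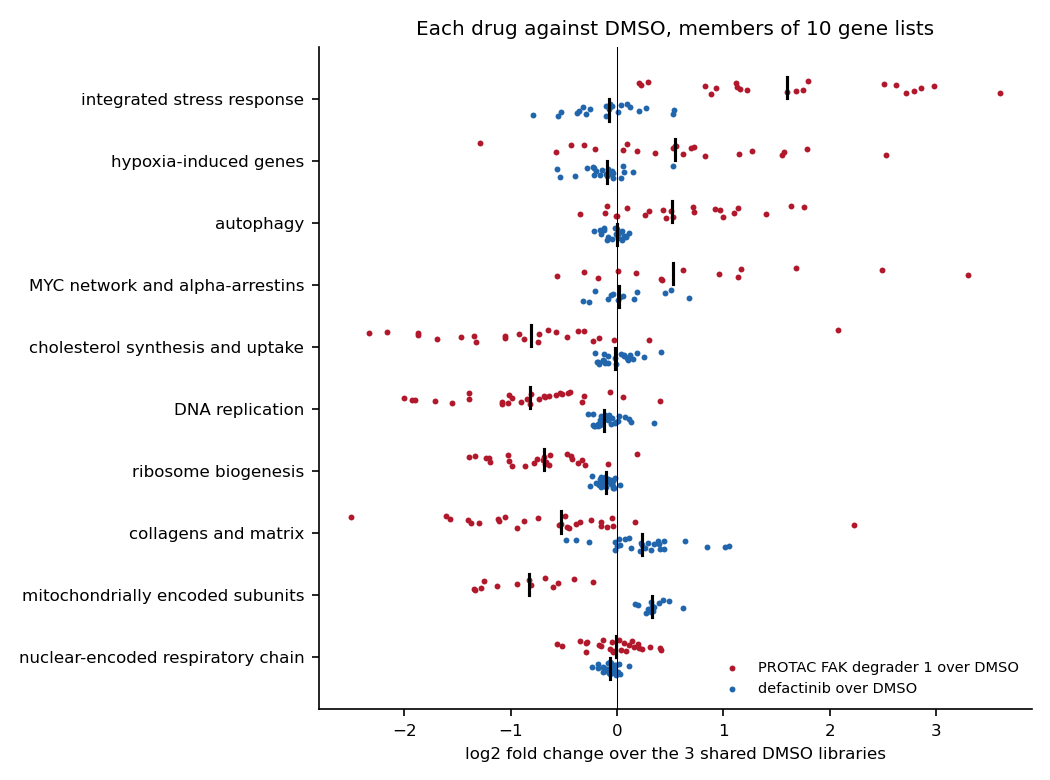
Log2 fold changes over the 3 shared DMSO libraries for the members of 10 gene lists, with PROTAC FAK degrader 1 in red, defactinib in blue and medians as black bars. The list medians lie between -0.12 and 0.33 with defactinib and between -0.83 and 1.60 with the degrader.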

How the data were processed

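RNA of 24 libraries in 8 groups of 3 was sequenced after poly(A) selection. The authors deposited whole-number read counts for 49315 Ensembl genes, without normalization. The number of columns that matched no sample was 0. The submitters' processing notes name Trimmomatic 0.36, STAR 2.5.2b, featureCounts from Subread 1.5.2 and GRCm38. The annotation release and the strand setting are not given in the sources used here, so reads of overlapping, antisense or near-identical genes may be split or shared. Coordinates and symbols were taken from GENCODE M21 (GRCm38), which held 49056 of the identifiers.

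Counts were filtered with filterByExpr, scaled with TMM factors and fitted with the edgeR 4.0.16 quasi-likelihood model (R 4.3.3, limma 3.58.1) over all 24 libraries, with 1 coefficient per group, no block and 16 residual degrees of freedom. P-values are two-sided and adjusted by Benjamini-Hochberg over 16070 genes, with a threshold of 0.05. CPM were computed from TMM-scaled totals, and intervals cover 95%. The labels call the replicates biological, but do not say how cultures were separated, so p-values measure the spread between these libraries. In no pair of replicates did counts agree within sampling noise (chi-square per degree of freedom 2.3 to 6.35 within each drug).

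Genes were named by rule. They were the study's genes (Met, Hgf, Spint1, Ptk2, Ptk2b, Nf2, Nlrp3, Sox10), the 15 largest increases and decreases among called genes that averaged 5 CPM or more and whose groups did not overlap, up to 6 members per list with the largest differences, the largest in the other direction and defining members, and the 3 largest in each direction among genes past the threshold against DMSO in opposite directions. Some genes that meet the rule are not reported here. Genes outside the rule are marked in the text, apart from markers. The comparison, the 42 gene lists and the rule were chosen with earlier results of these data known. Alternatives were DESeq2 1.42.0, library totals, limma-trend on log2(CPM + 4), no filter on low counts, the replicate number as a block, fits of 6 or 9 libraries, thinning to the smallest total, and leaving out each drug library. The other treatments were used in the filter, the scaling and the fit.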

Additional observations from a re-analysis of the deposited data

How the results depend on the processing

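Under the 14 alternatives, the count of 11078 genes past the threshold ranged from 10359 (libraries thinned to the smallest total) to 11076, and every gene called in both the main fit and an alternative kept its direction. The count of genes at least 2-fold apart was 660 in place of 2611 with limma-trend on log2(CPM + 4), where the added constant of 4 shrinks the differences of low genes. With library totals as scaling, 6189 genes were higher and 4853 lower (56% higher, against 50.7%), and the median of all genes moved to 0.0605, so small list medians are relative to that shift. Leaving out each drug library in turn gave 10612 to 10732 genes past the threshold and 2589 to 2656 at least 2-fold apart. Of 42 list medians, 39 moved by more than their spread between replicates in at least 1 alternative, 32 of them with library totals and 18 with limma-trend, and with limma-trend 28 of 84 list counts at 2-fold moved by more than 1.5 times. Of these medians, 40 kept their sign in every alternative. The median of the amino acid transporters was 0.16 in place of -0.08 when only the 6 drug libraries were fitted, and that of the chaperones of the endoplasmic reticulum was 0.03 with library totals and 0.01 without degrader replicate 3 in place of -0.03. The cause was not tested. Of 34 list medians of at least 0.1 in size, 13 moved by more than 1.5 times in at least 1 alternative, 9 of them with limma-trend, where the mitochondrially encoded subunits had -0.75 in place of -1.16 and the integrins and laminins -0.46 in place of -0.78. Leaving out 1 library did so for 4 of them. Without degrader replicate 3 the repair SC factors had -0.56 in place of -0.36 and the BCL2 family 0.21 in place of 0.11, and without degrader replicate 1 the NRF2 list had 0.07 in place of 0.11. The list of NF-kB feedback, chemokines and inflammasome genes had -0.06 to -0.02 in place of -0.10 without defactinib replicate 1 or 3 or any 1 degrader replicate. No pairing by replicate number was seen between the drugs. Deviations of libraries with the same number correlated at -0.148, -0.0555 and -0.000618, and those with unlike numbers at -0.0655 to 0.127. This cannot show how the cultures were separated, which the labels do not say. The fit with the replicate number as a block called 11038 genes. Of 296 genes named by rule and tested, 11 changed their side of the threshold in at least 1 alternative. Among them, Mgst1, Egr2, Igfbp2, Ddr2, Irf7, Psmb9, Mmp3 and mt-Nd3 lost it and Hif1a and Epas1 gained it, and none changed direction. All of the genes named here but Ddr2 and Hif1a averaged below 6 CPM, where depth limits the precision.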

Other observations

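The largest log2 differences in the plot of all genes belonged to small RNA genes, most of which lack a poly(A) tail. Of 263 small RNA genes tested, 29 passed the threshold and were at least 2-fold higher with PROTAC FAK degrader 1, and in 18 of these degrader replicate 3 exceeded both other degrader libraries more than 10 times. Without degrader replicate 3, 6 of the 29 both passed the threshold and were at least 2-fold higher. Rn7s2, a signal recognition particle RNA, stood at 0.0459, 0 and 12.3 CPM with the degrader and at 0.0436, 0 and 0 CPM with defactinib, and DMSO replicate 2 held 6.88 CPM. Rny3, a Y RNA, stood at 0, 0 and 10.7 CPM with the degrader, 0.174, 0 and 0 CPM with defactinib and 6.69 CPM in DMSO replicate 2. A further 60 small RNA genes passed the threshold and were at least 2-fold lower with the degrader. None of these 263 small RNA genes was named in the comparison. The mitochondrial tRNA gene mt-Tl1 was named, but its class was not among the 263.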
